A study of Mus musculus with 9 samples.

Results

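The autophagy genes described here are 36 genes of the core autophagy machinery, chosen by gene symbol and role. All 36 were found among the 24364 genes of the tables, and all 36 passed the filter on low values, with 12101 genes tested in all. They comprise 16 initiation genes, 16 conjugation genes and 4 cargo receptors. RNA sequencing had been done on GFP+ acute promyelocytic leukemia (APL) cells, a leukemia of cells arrested at the promyelocyte stage by the PML/RARα fusion protein. The cells came from hMRP8-PML/RARα transgenic FVB/NJ mice, in which the MRP8 promoter drives the fusion in myeloid cells, and were marked with the MigR1 retrovirus. After marking, they were first passed through sublethally irradiated FVB/NJ mice. They were then grown in syngeneic FVB/NJ recipients and sorted by GFP from bone marrow at overt leukemia. The study used non-irradiated or sublethally irradiated recipients, without saying which for these libraries. All 3 groups therefore carried the transgene and the GFP vector. The control group (3 libraries) had no drug, and an injection of solvent is not stated. The ATRA group (3 libraries) had all-trans retinoic acid at 10 mg/kg and the ATO group (3 libraries) had arsenic trioxide at 4 mg/kg, each by daily intraperitoneal injection for 6 days. Recipients were aged 6 to 10 weeks, and their sex was not given in the sources used here. The labels speak of biological replicates without saying that each library came from its own animal, so p-values measure the spread between these libraries, which may be technical in part.

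Autophagy encloses cytoplasm in a double membrane and delivers it to the lysosome. The ULK kinase complex and the class III PI3-kinase complex start the membrane, ATG9, ATG2 and the WIPI proteins help supply it with lipid, and a pair of ubiquitin-like reactions couples ATG8 proteins such as LC3B to it. Cargo receptors bind ubiquitinated cargo and ATG8 proteins together. In APL cells autophagy is known as a route of turnover of PML/RARα under retinoic acid and arsenic. Much of its control acts on proteins, and mRNA levels do not measure autophagic flux.

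The libraries held 12192491 to 25511738 reads in genes, lowest in ATO 3 and highest in ATO 2. Values below are scaled reads, that is, reads divided by a size factor common to all genes of a library. The members were well covered: the least counted was Atg10 in ATO 3, with 27 reads, and the most counted was Gabarap in ATO 2, with 8223 reads. As the promyelocyte label requires, 7 promyelocyte markers, among them granule enzymes such as Mpo, were all detected in every library, with a summed level of 188800 to 627700 scaled reads. Control 2 stood apart from the other controls, with the lowest sum of these markers (188800 against 360900 and 547800) and the highest sum of 9 neutrophil markers (542000 against 191800 and 195400). ATO 3 stood apart by exon length, as described below.

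The 36 genes spanned a wide range of levels. Per kilobase of exon, the mean control level was highest for Gabarap (2895 scaled reads per kb) and Map1lc3b (2404), which encode ATG8 proteins. Atg101, a subunit of the ULK complex, followed at 1526, then the cargo receptor Sqstm1 (p62) at 1205, Gabarapl1 at 846 and Atg9a, a lipid scramblase of the early membrane, at 707. The lowest were Atg10, the enzyme that joins ATG12 to ATG5 (34.9), Atg16l2, a paralog of the ATG16L1 scaffold (28.5), and Rb1cc1, the FIP200 scaffold of the ULK complex (13.8). These are levels over the union of annotated exons, so a gene with long alternative exons is placed too low. Within the ATG8 family, Gabarap held 44.5% ± 2.15 (SD, n = 3) and Map1lc3b held 37.1% ± 3.52 of the summed level per kb in controls. The ATG8 order was the same in all 9 libraries, and Gabarap made up 42% to 48.8% of the sum in each. The levels of Map1lc3a (1.64% to 2.75%) and Gabarapl2 (2.96% to 4.46%) were minor in each library. Among the receptors, Sqstm1 made up 64.0% to 87.6% of the summed level.

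The summed level of the 36 genes was nearly level over the groups: 42590 to 48030 scaled reads in controls, 44770 to 48510 under ATRA and 46420 to 51460 with ATO. The spread within groups was moderate, with a median coefficient of variation over the 36 genes of 16.1% in controls, 9.72% with ATRA and 14.9% with ATO. It was widest in controls for Optn, the receptor optineurin, at 59.1%, since control 2 had 446 scaled reads and the other controls had 176 and 173.

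**Figure D1:**
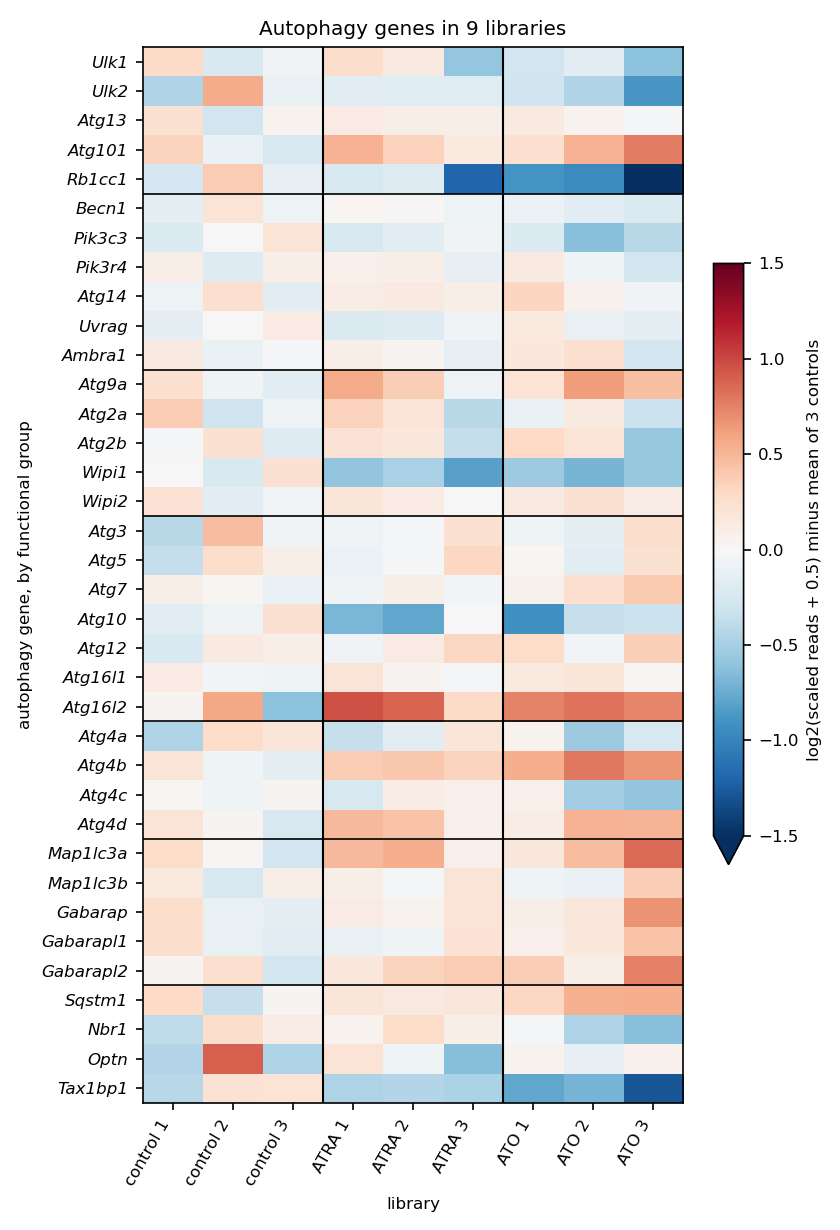
Heat map of the 36 autophagy genes (rows, in functional groups split by lines) in the 9 libraries (columns). Colour gives log2(scaled reads + 0.5) minus the mean of the 3 controls. Rb1cc1, Wipi1 and Tax1bp1 are blue in the 3 ATO libraries, and Wipi1 is blue with ATRA too. Atg4b and Atg16l2, the latter not called, are red with ATO, and most other rows are pale.

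For the regulatory sequence, RefSeq promoters (assembly GRCm38.p6) were matched by symbol for 30 of the 36 genes. Shown first are bases upstream of the transcription start of 3 genes called with ATO (below). Any base inside an annotated RefSeq gene was left out. For Tax1bp1 this removed the bases nearest the start. Its window ran to 52713728, and those bases lie inside the annotated span of Tax1bp1 itself. Rb1cc1, the other gene called with ATO, had no matched entry. The Wipi1 stretch is chr11:109611390-109611639 on the minus strand, the Atg4b stretch chr1:93754839-93754904 on the plus strand (shorter because the neighbour Thap4 overlaps the rest) and the Tax1bp1 stretch chr6:52713479-52713691 on the plus strand, each printed 5′ to 3′.
Wipi1: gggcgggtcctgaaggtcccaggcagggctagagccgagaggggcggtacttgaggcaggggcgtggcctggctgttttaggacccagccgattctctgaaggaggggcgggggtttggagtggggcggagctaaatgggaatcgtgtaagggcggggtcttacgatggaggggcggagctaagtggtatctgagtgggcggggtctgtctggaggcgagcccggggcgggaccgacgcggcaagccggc
Atg4b: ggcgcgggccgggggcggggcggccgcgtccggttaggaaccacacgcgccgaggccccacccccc
Tax1bp1: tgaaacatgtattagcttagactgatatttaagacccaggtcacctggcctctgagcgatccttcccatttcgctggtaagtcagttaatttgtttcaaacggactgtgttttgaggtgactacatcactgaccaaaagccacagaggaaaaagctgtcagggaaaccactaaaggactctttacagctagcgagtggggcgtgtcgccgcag

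These stretches differ in composition, with G and C making up 67.2% of the Wipi1, 84.8% of the Atg4b and 46.9% of the Tax1bp1 bases. The contrast depends on the stretch printed. G and C made up 78.0% of the full 250 bases for Atg4b, and 70.8% upstream of a second annotated Tax1bp1 start. The E-box CACGTG, the core of the element read by TFEB, a master regulator of autophagy and lysosome genes, was searched on both strands in the 250 bases upstream of each start. It was present in 3 of the 30 genes (10.0%), against 6.86% of 27025 genes with a promoter entry and 6.02% of all 32851 windows. The 3 genes fall in the group of conjugation enzymes and scaffolds. The letters are shown with flanks, the E-box in capitals: Atg3 at chr16:45158718-45158780, Atg5 at chr10:44268308-44268338 and Atg7 at chr6:114670947-114670986, all on the plus strand.
Atg3: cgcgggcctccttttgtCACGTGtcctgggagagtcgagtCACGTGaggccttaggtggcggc
Atg5: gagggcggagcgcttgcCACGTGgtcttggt
Atg7: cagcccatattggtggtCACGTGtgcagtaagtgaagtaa

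The Atg3 window held the letters at 94 and at 71 bases before the start, the Atg5 window at 14 and the Atg7 window at 132. The antioxidant response element TGACNNNGC was present upstream of Ulk2, Atg13 and Tax1bp1 (for Tax1bp1 only in the window of a second annotated start, not in the stretch printed above), also 10.0% of 30 genes, against 11.52% of all genes with an entry and 10.16% of windows. The AP-1 element TGANTCA (7.82% of genes and 6.75% of windows) and the heat shock element GAANNTTC (7.73% and 6.69%) were present in none of the 30; the AP-1 and antioxidant letters can overlap. None of the 3 E-box genes was called with either drug.

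The first comparison was of each drug with control. With ATO, 1 of the 36 genes was called higher, Atg4b, and 3 were called lower, Rb1cc1, Wipi1 and Tax1bp1. A call means an adjusted p under 0.05 (limma over all 12101 genes, Benjamini-Hochberg) and a fold change over 1.5. Over all genes tested, 6.13% were called higher and 8.55% lower with ATO, so 3 of 36 lower lies near the background. With ATRA none of the 36 was called, against a background of 1.34% higher and 4.26% lower; 3 members (8.3%; all genes 19.2%) had an unadjusted p under 0.05 (Wipi1, Atg16l2 and Atg4b), and edgeR and DESeq2 on recovered reads each called Wipi1 lower. With ATO 8 members (22.2%; all genes 34.8%) had an unadjusted p under 0.05. All ATO libraries lay above all controls for 3 of 36 members and below them for 4, against 15.86% and 16.37% of all genes. With ATRA these counts were 1 and 2, against 11.54% and 12.53% of all genes. No member was called with ATO without control 3 or without ATO 3, and without ATO 2 the call of Tax1bp1 alone was left; without control 1, Atg101 and Sqstm1 were called higher and Ulk2 lower as well. In bulk RNA, fewer cells of a type and less RNA per cell cannot be told apart. The median log2 fold change of the 36 was 0.05 under ATRA and 0.04 under ATO, and that of all genes was -0.01 in each. The 95% interval lay within 1.5-fold in either direction for 21 of 36 members with ATRA (58.3%; all genes 23.0%) and for 13 of 36 with ATO (36.1%; all genes 15.9%).

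**Figure D2:**
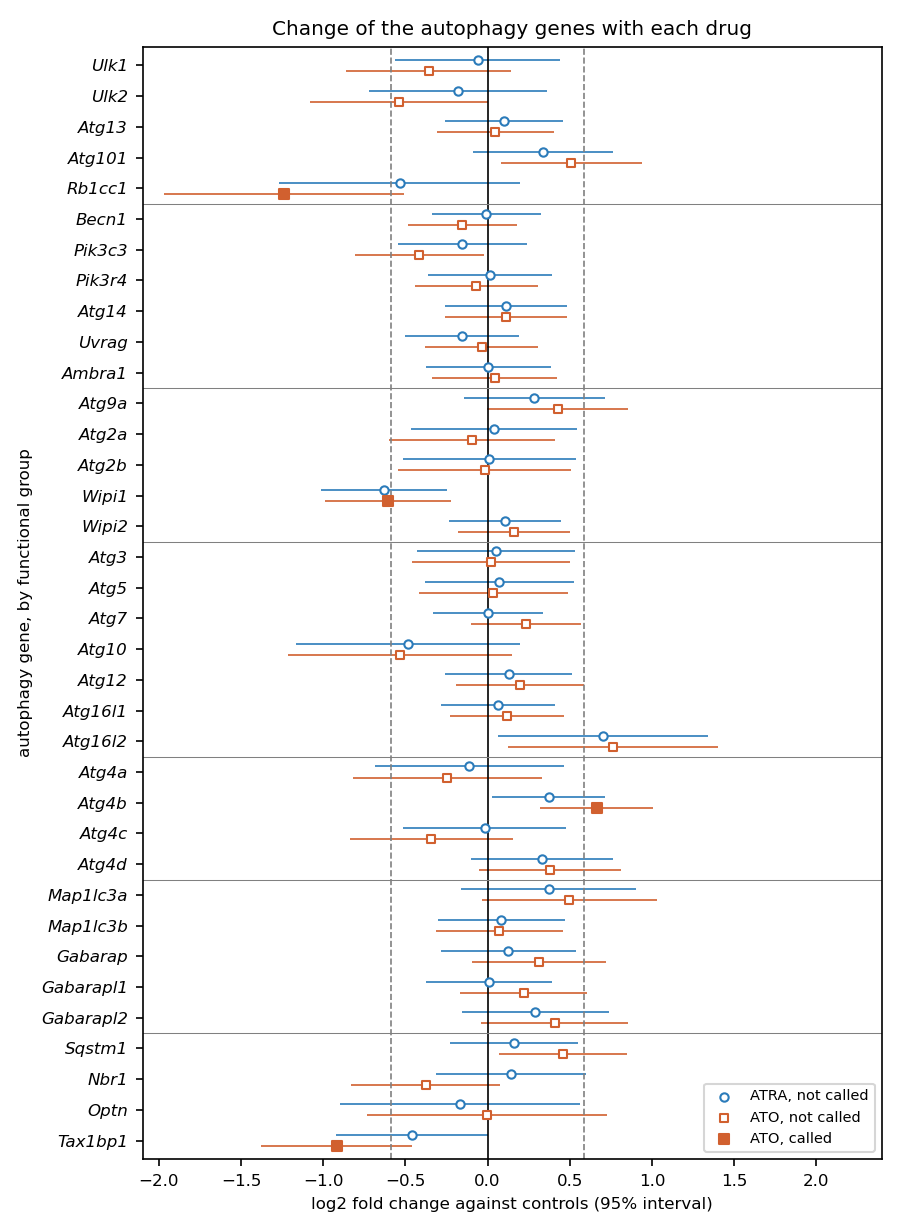
Log2 fold change against controls (x axis) of each of the 36 genes (y axis, by functional group) with ATRA (circles) and ATO (squares), 3 libraries per group, with limma's 95% intervals; filled symbols mark the 4 calls and dashed lines a 1.5-fold change. Only the ATO squares of Rb1cc1, Wipi1, Atg4b and Tax1bp1 are filled.

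Among the 5 genes of the ULK complex, which receives the signal to start autophagy, Rb1cc1 fell with ATO. The gene lies at chr1:6196278-6266729 on the plus strand (NCBIM37, the build of the study's mm9). It had 166, 259 and 182 scaled reads in the controls, 170, 174 and 86.5 under ATRA and 106, 102 and 54.2 under ATO. Each ATO library was below each control, and the ATRA libraries overlapped both. The log2 fold change with ATO was -1.24 (SE 0.338, adjusted p = 0.0318, limma), that is, a level of 0.424 of control, and with ATRA -0.54 (SE 0.338, adjusted p = 0.418). The call was lost without control 2 (adjusted p = 0.0851), control 3 (0.125), ATO 2 (0.0595) or ATO 3 (0.116), and without control 2 and ATO 3 together (log2 fold change -0.73, adjusted p = 0.181). With each library's trend with length and GC content removed (below) it was -0.27 (adjusted p = 0.393). Over 22 alternative fits its adjusted p ran from 0.00567 to 0.393, and 15 kept the call. It had 33 to 255 reads per library and the longest exons of the 36 genes (14690 bases).

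Atg101, which steadies ATG13 in the complex, had 2334, 1731 and 1564 scaled reads in controls and 2194, 2646 and 3142 with ATO, so the groups overlapped. Its log2 fold change with ATO was 0.51 (SE 0.198, adjusted p = 0.0924). Ulk2, a paralog of the ULK1 kinase, had a log2 fold change of -0.54 with ATO (adjusted p = 0.146) and -0.18 with ATRA (adjusted p = 0.734). The kinase gene Ulk1 gave -0.36 and -0.06, with intervals from -0.86 to 0.14 and from -0.56 to 0.44. The adaptor gene Atg13 was at 0.05 with ATO (95% interval -0.31 to 0.41) and 0.10 with ATRA (-0.26 to 0.46). Atg101 and Ulk2 were singled out after their values were seen.

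The 6 genes of the PI3-kinase complex, which makes the lipid that marks the site of membrane growth, had log2 fold changes near 0. None was called with either drug, their log2 fold changes ran from -0.15 to 0.11 with ATRA and from -0.41 to 0.11 with ATO, and the 95% interval lay within 1.5-fold for 6 of 6 with ATRA and 5 of 6 with ATO. The largest difference was that of Pik3c3, the VPS34 catalytic subunit. It had 559, 646 and 741 scaled reads in controls, 547, 571 and 621 under ATRA and 560, 417 and 484 under ATO. The ATO libraries overlapped the lowest control, and the log2 fold change was -0.41 (SE 0.181, adjusted p = 0.125). Becn1, the beclin 1 scaffold, gave -0.01 with ATRA and -0.15 with ATO, and 43.9% of its exon bases overlapped an exon of Cntd1 on the other strand, which an unstranded library cannot tell apart. The regulatory kinase subunit Pik3r4 (0.01 and -0.07), the subunits Atg14 (0.11 and 0.11) and Uvrag (-0.15 and -0.04), which set alternative forms of the complex, and the beclin partner Ambra1 (0.00 and 0.04) all had intervals across 0.

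In the group of ATG9, ATG2 and WIPI genes, which bring lipid to the growing membrane, Wipi1 fell with ATO. WIPI1 binds the lipid made by the PI3-kinase, and its gene lies at chr11:109434645-109473281 on the minus strand (NCBIM37). Its values were 821, 697 and 958 scaled reads in controls, 543, 582 and 466 under ATRA and 559, 503 and 553 under ATO. Every library of either drug was below every control. The log2 fold change with ATO was -0.61 (SE 0.177, adjusted p = 0.0396), a level of 0.657 of control, and that with ATRA was -0.63 (SE 0.177, adjusted p = 0.0582), a level of 0.646, just past the threshold for a call. The difference between the drugs was 0.03 (95% interval -0.36 to 0.41). The ATO call was the least stable of the 4: it was lost without control 3 (adjusted p = 0.189), ATRA 1 (0.0618), ATRA 2 (0.0672), ATO 1 (0.0559), ATO 2 (0.123) or ATO 3 (0.0896), in a fit of just control and ATO libraries (0.0795) and with libraries centred on the median gene (0.0591), and 12 of 22 alternative fits kept it, with adjusted p from 0.0171 to 0.189. Of the 22 fits, 5 called Wipi1 lower with ATRA (adjusted p from 0.0217 to 0.357 over the 22), among them the fit without control 2.

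The paralog Wipi2, which recruits ATG16L1 to the membrane, stood at 0.10 under ATRA and 0.16 under ATO (95% interval -0.18 to 0.50). Per kilobase, Wipi1 made up 49.6%, 52.2% and 57.8% of the Wipi1 and Wipi2 sum in controls, against 40.0%, 42.6% and 39.2% in the ATRA libraries and 41.3%, 37.3% and 41.6% in the ATO libraries. The share in each drug library was below that in each control. This share is a ratio within a library, so it does not depend on the scaling, and it was worked out after the values were seen. Atg9a gave 0.29 under ATRA and 0.43 under ATO (adjusted p = 0.144), while the lipid transfer proteins Atg2a (0.04 and -0.10) and Atg2b (0.01 and -0.02) had intervals on both sides of 0.

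The 7 conjugation enzymes and scaffolds attach ATG12 to ATG5 and ATG8 proteins to lipid. None was called with either drug. The largest difference was that of Atg16l2, with 108, 156 and 68.3 scaled reads in controls, 203, 192 and 128 under ATRA and 176, 185 and 174 under ATO. All ATO libraries were above all controls, while ATRA 3 was below control 2. Its log2 fold change was 0.70 with ATRA (SE 0.295, adjusted p = 0.217) and 0.76 with ATO (SE 0.295, adjusted p = 0.0916). Without control 2, its highest control, it was called higher with ATO (log2 fold change 1.05, adjusted p = 0.0331), and without control 3, its lowest, the log2 fold change was 0.46 (adjusted p = 0.352). Atg10 was not called either, at -0.49 with ATRA (adjusted p = 0.431) and -0.53 with ATO (adjusted p = 0.239), on 27 to 73 reads per library.

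The other 5 genes of this group had small log2 fold changes. Atg7, the E1-like activating enzyme, gave 0.00 under ATRA and 0.24 under ATO (95% interval -0.10 to 0.57). Atg3, the E2-like enzyme for ATG8 proteins, gave 0.05 and 0.02. Atg5, the acceptor of ATG12, gave 0.07 and 0.03, and Atg12 itself 0.13 and 0.20. The ATG16L1 scaffold gene, which places the conjugate on the membrane, gave 0.06 and 0.12. The 95% intervals of these 5 genes lay within 1.5-fold with ATRA, and with ATO those of 4 did, while the upper bound of Atg12 (0.58) was at the limit.

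The 4 ATG4 proteases trim ATG8 proteins before they are coupled and release them from the membrane afterwards. Atg4b, the main protease of the family in mammals, rose with ATO. The gene lies at chr1:95648077-95686372 on the plus strand (NCBIM37). It had 883, 740 and 703 scaled reads in controls, 1008, 1020 and 969 under ATRA and 1126, 1335 and 1218 under ATO. The 3 groups did not overlap, with ATRA between the others. On the log2 scale it rose with ATO by 0.66 (SE 0.159, adjusted p = 0.0195), 1.59-fold, and with ATRA 0.37 (SE 0.159, adjusted p = 0.225). The call was lost without control 3 (adjusted p = 0.124), ATO 2 (0.0787) or ATO 3 (0.051), without control 2 and ATO 3 together (0.059) and in a fit of just control and ATO libraries (0.0525), and 17 of 22 alternative fits kept it, with adjusted p from 0.00254 to 0.124. Per kilobase, Atg4b made up 31.4% ± 2.14 (SD, n = 3) of the 4 proteases in controls, 34.3% ± 0.767 with ATRA and 39.5% ± 1.49 with ATO.

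Of the other proteases, Atg4d gave 0.33 under ATRA and 0.38 under ATO (adjusted p = 0.396 and 0.189), Atg4a -0.11 and -0.25, and Atg4c -0.02 and -0.34, none called. The Atg4d exons overlapped those of Kri1 on the other strand over 31.1% of their bases.

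The 5 genes of the ATG8 family, whose products are fixed to the membrane and hold the receptors, had positive log2 fold changes in all 5 with each drug (all genes 49.5% and 49.6%), and none was called. The median was 0.12 under ATRA and 0.31 under ATO; without ATO 3 the ATO median was 0.13 with 4 of 5 positive, and without control 2 the ATRA median was 0.07 with 3 of 5 positive. Genes at large in the 3 shortest length bins, which span the lengths of these 5 genes, had ATO medians of 0.31, 0.23 and 0.18. Their ATRA medians were 0.17, 0.13 and 0.10. Gabarap had 6351, 4884 and 4782 scaled reads in controls, 5760, 5508 and 6060 under ATRA and 5619, 5967 and 8479 under ATO. Map1lc3b, the gene of LC3B, had 4534, 3471 and 4344 in controls, 4344, 3991 and 4674 under ATRA and 3916, 3823 and 5299 under ATO. In both genes the groups overlapped and ATO 3 was the highest of the 9 libraries. The log2 fold change with ATO was 0.31 for Gabarap (95% interval -0.10 to 0.72) and 0.07 for Map1lc3b (-0.32 to 0.46).

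The largest difference of the family was that of Map1lc3a, with 177, 147 and 120 scaled reads in controls, 204, 214 and 154 under ATRA and 164, 202 and 264 under ATO. Its groups overlapped, and its log2 fold change was 0.37 with ATRA (adjusted p = 0.441) and 0.50 with ATO (adjusted p = 0.167). Gabarapl2 (GATE-16) gave 0.29 and 0.41 (0.23 with ATO without ATO 3), and Gabarapl1 0.01 and 0.22. ATO 3 was the highest library of all 9 for each of the 5 genes, with a median deviation of 0.53 (log2) from their mean over the libraries, against -0.06 in ATO 1 and 0.03 in ATO 2.

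Of the 4 cargo receptors, which link ubiquitinated cargo to ATG8 proteins, Tax1bp1 fell with ATO. The gene lies at chr6:52663723-52716774 on the plus strand (NCBIM37). It had 912, 1414 and 1406 scaled reads in controls, 885, 897 and 878 under ATRA and 711, 755 and 499 under ATO. The 3 groups did not overlap, with ATRA just below the lowest control. The log2 fold change with ATO was -0.92 (SE 0.213, adjusted p = 0.0178), a level of 0.529 of control, and with ATRA -0.46 (SE 0.213, adjusted p = 0.263). The call was lost without control 3 (adjusted p = 0.118) or ATO 3 (0.064) and without control 2 and ATO 3 together (0.0909), and with length and GC trends removed the log2 fold change was -0.30 (0.0775). In all, 17 of 22 alternative fits kept it, with adjusted p from 0.00154 to 0.118.

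Sqstm1, the p62 receptor, had 4907, 3121 and 4108 scaled reads in controls, 4519, 4363 and 4468 under ATRA and 4921, 5740 and 5801 under ATO. Every ATO library was above every control, though ATO 1 exceeded control 1 by a small margin. Its log2 fold change with ATO was 0.46 (SE 0.179, adjusted p = 0.0935) and with ATRA 0.16 (adjusted p = 0.66); it was singled out after its values were seen, and 17.3% of its exon bases overlapped a gene on the other strand. Without control 1 it was called higher with ATO (log2 fold change 0.61, adjusted p = 0.0256), while without control 2, its lowest control, the log2 fold change was 0.29 with ATO (adjusted p = 0.268) and -0.01 with ATRA. Nbr1, a receptor related to p62, had 827, 1294 and 1158 scaled reads in controls, 1116, 1302 and 1145 under ATRA and 1054, 776 and 692 under ATO. Its log2 fold change was 0.14 with ATRA and -0.38 with ATO (adjusted p = 0.214). Optn gave -0.17 and 0.00, with a wide interval of -0.74 to 0.73 with ATO, and its controls ranged from 173 to 446; without control 2 it gave 0.28 and 0.45 (adjusted p = 0.617 and 0.255).

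**Figure D3:**
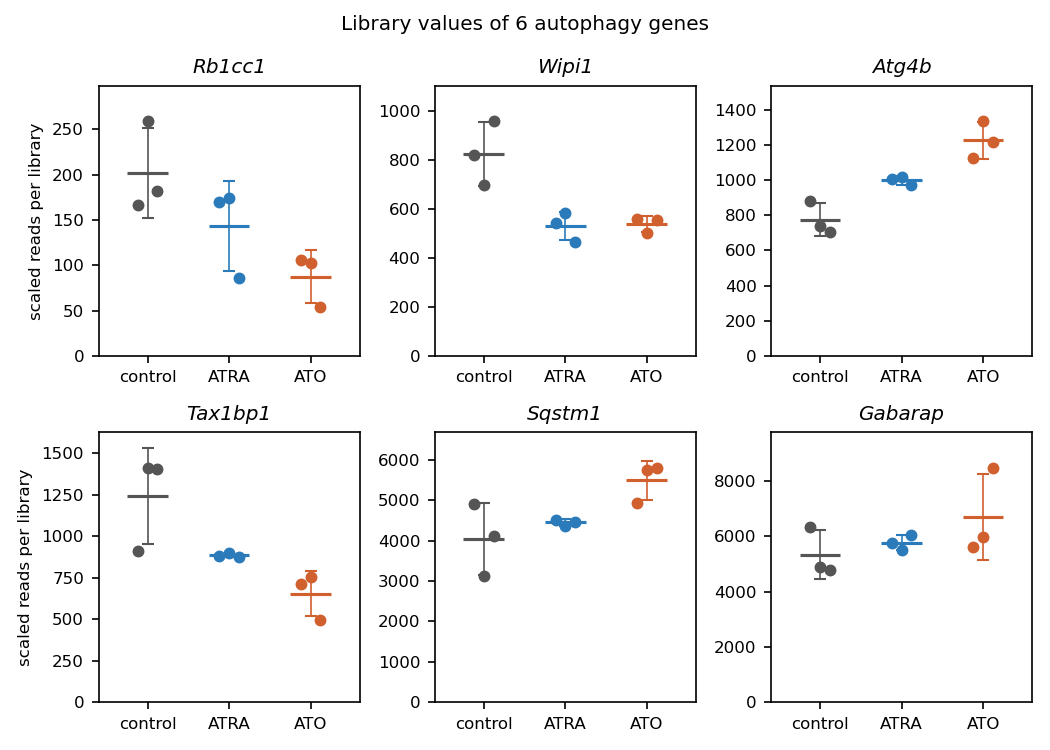
Scaled reads per library (y axes, from 0) of 6 autophagy genes in control, ATRA and ATO, 3 libraries each; points are libraries, thick bars means and thin bars SD. The ATO libraries lie below all controls for Rb1cc1, Wipi1 and Tax1bp1, above them for Atg4b and Sqstm1, and overlap them for Gabarap. Of all genes tested, 15.86% lay wholly above the controls with ATO and 16.37% wholly below.

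The second comparison was of ATO with ATRA, which leaves the controls out of the contrast. No member was called in either direction, and neither was any other gene (0% higher and 0% lower of 12101). Of the 36, 1 gene (2.8%) had an unadjusted p under 0.05, and of all genes 764 (6.3%) had. DESeq2 called 49 genes higher and 21 lower, none of them a member, and edgeR called none. The member was Nbr1, lower with ATO by -0.52 on the log2 scale (SE 0.21, adjusted p = 0.706), and its ATO libraries lay below its ATRA libraries. For the 4 genes called with ATO, the ATO minus ATRA difference was -0.70 for Rb1cc1 (95% interval -1.43 to 0.03, adjusted p = 0.78), 0.03 for Wipi1, 0.29 for Atg4b (-0.05 to 0.64, adjusted p = 0.79) and -0.46 for Tax1bp1 (-0.92 to 0.00, adjusted p = 0.78). A member called with ATO alone was thus not shown to respond otherwise to ATRA. The interval of the difference lay within 1.5-fold for 18 of 36 members (50%; all genes 31.2%).

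The fold changes of the 36 genes went with the length of their exons, and so did those of genes at large. With ATO, the log2 fold change correlated with log2 exon length at Pearson r = -0.443 and Spearman rho = -0.416 over the 36 genes, and at -0.251 and -0.352 over 11856 genes with a known length; this is a description across genes, which share the same 9 libraries. Without ATO 3 the ATO values over the 36 were -0.232 and -0.169, without control 2 they were -0.40 and -0.42, and without both they were -0.181 and -0.176. With ATRA they were -0.288 and -0.298, and -0.201 and -0.269 without control 2. The median log2 fold change with ATO was 0.15 in the 18 shorter members and -0.08 in the 18 longer ones, and among all genes it ran from 0.31 in the shortest of 10 length bins to -0.48 in the longest. The members called lower had exons of 14690 (Rb1cc1), 6609 (Tax1bp1) and 4410 (Wipi1) bases, above the members' median of 3817. Atg4b, called higher, had 6037, so it went against the trend. Libraries differed in this slope within groups, from 0.01 to 0.21 per doubling of length in controls (highest in control 2). With ATRA it ran from -0.121 (ATRA 3) to 0.049, and with ATO from -0.295 (ATO 3) to 0.023. ATRA 3 was the lowest library of its group for 20 members, with a median exon length of 5595 bases. ATO 3 was the highest of the 9 libraries for 9 members, with a median exon length of 1844 bases, and the lowest for 10, with a median of 6376 bases.

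When each library's trend with length and GC content was removed (11558 genes), none of the 36 was called lower with ATO: Rb1cc1 was at -0.27 (adjusted p = 0.393), Tax1bp1 at -0.30 (0.0775) and Wipi1 at -0.48 (0.0343, under 1.5-fold). Atg4b was at 0.89 (adjusted p = 0.00254) and Gabarapl2, of the ATG8 family, was called higher at 0.62 (0.0261). Sqstm1 was at 0.44 with ATO (limma adjusted p = 0.0234), and Atg4b was at 0.58 with ATRA (0.0197). Neither of these was called, each being under 1.5-fold. This step moved the median of all genes from -0.01 to 0.13 with ATO and to 0.14 with ATRA, and calls near the 1.5-fold limit turned on it: relative to the median gene, Wipi1 was at -0.61, past 1.5-fold, and Gabarapl2 at 0.49, under it. The part of RNA quality or library preparation in the length trend was not tested.

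**Figure D4:**
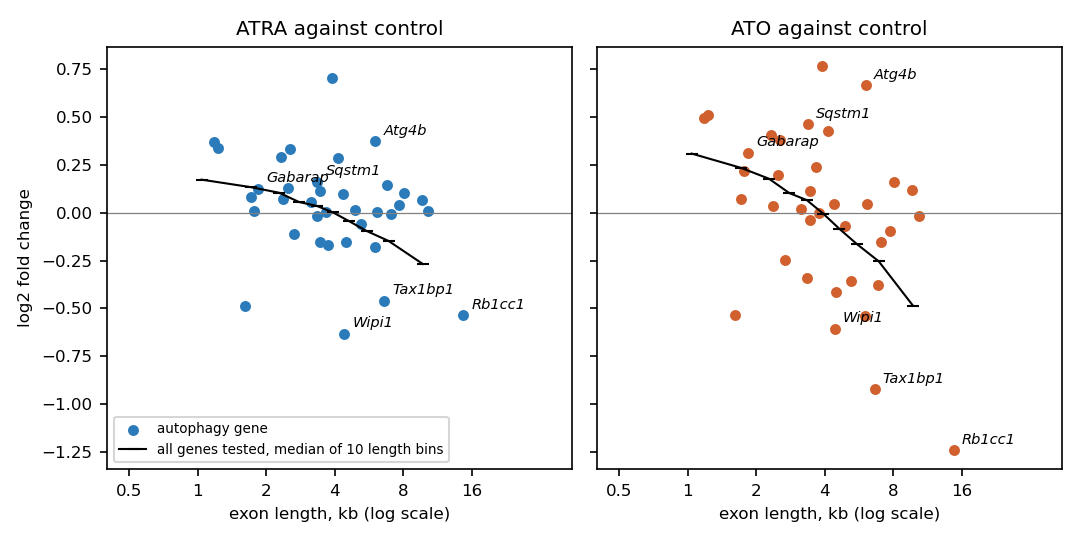
Log2 fold change (y axis) of the 36 autophagy genes (points) against exon length in kb (x axis, log scale), for ATRA and for ATO; the black line joins the medians of all genes tested in 10 bins of length. The line slopes down in both panels, more steeply with ATO, and Rb1cc1 and Tax1bp1 lie below it and Atg4b above it.

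Of 58 other autophagy genes listed for their roles, 56 were tested. With ATRA 0 were called higher and 1 lower (1.8%; all genes 4.26%), and with ATO 2 higher (3.6%; all genes 6.13%) and 6 lower (10.7%; all genes 8.55%), with medians of -0.04 and -0.03. With both drugs the gene that fell most was Fam134b, a receptor for autophagy of the endoplasmic reticulum. It had 28.3, 31.5 and 39.5 scaled reads in controls and at most 3.12 in the ATO libraries. Its limma adjusted p was 0.00676 with ATO and 0.0106 with ATRA. These are low counts, 29 to 44 reads in the controls and 0 to 5 in the drug libraries. Deptor, an inhibitor of the mTOR kinase, had a log2 fold change of -1.56 with ATO (adjusted p = 0.00286), Ncoa4, the ferritin receptor, of -0.85 (0.0197) and Sh3glb1, which bends the early membrane, of -0.79 (0.0406). Tex264, another receptor for the endoplasmic reticulum, rose by 0.90 (limma adjusted p = 0.0144). Sesn2, a stress-induced inhibitor of mTOR complex signaling, rose by 0.71 (0.0363). For these other genes only the main fit is given, without the alternatives shown for the members. Deptor, with 8874 exon bases, falls in the longest length bin, whose median log2 fold change with ATO was -0.485.

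Markers of other cells differed between the groups beside these results. The summed level of 13 macrophage markers was 9360 to 25710 scaled reads in controls, 3395 to 4423 under ATRA and 3986 to 5164 under ATO; of the 12 tested, 7 were lower with ATRA, and 10 were lower and 1 (Adgre1) higher with ATO. The sum of 10 T and NK cell markers was 407 to 738, 45.0 to 100.5 and 38.5 to 57.4, and that of 7 stroma and endothelium markers 1076 to 1280, 342 to 453 and 365 to 396. B lineage and erythroid sums were at most 88.4 scaled reads in any library, with 0 to 5 of 6 and 4 to 6 of 9 markers at 0. Of the promyelocyte markers 1 of 7 was called higher with ATO and none with ATRA, and of the neutrophil markers 1 of 9 was called lower with each drug. Their part in the differences of Rb1cc1, Wipi1, Tax1bp1 and Atg4b was not tested. Nor was it tested for Fam134b and the other autophagy genes named above.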

How the data were processed

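RNA sequencing libraries of sorted GFP+ APL cells were grouped by the sample labels (3 control, 3 ATRA, 3 ATO). Per the study's methods, reads were checked with FastQC, trimmed with cutadapt, mapped to mm9 with STAR (unique reads only) and counted with HTSeq-count; the notes of the submitters list hg19 beside mm9, and tool versions were not given in the sources used here. The library kit guide named in the labels is TruSeq RNA, and strand use in counting is not stated. The deposited signal values were read counts that the authors had normalized with DESeq2 size factors, in 2 tables (ATRA with controls and ATO with the same controls). Fold changes and p-values of the authors' own comparisons stood in both tables and were not used. Left out were 27 date-like entries in place of gene names, with 0.118% to 0.173% of the reads.

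Dividing a column by its smallest step gave whole reads for all values within 0.001, and the controls were identical in both tables for 24364 genes. The 9 libraries were rescaled together by median-of-ratios factors. Genes with at least 10 scaled reads in at least 3 libraries were tested with limma 3.58.1 (R 4.3.3) on log2(value + 0.5), 3 groups in 1 model with an intensity trend, Benjamini-Hochberg over all 12101 genes, and fold changes are on that scale. edgeR 4.0.16 and DESeq2 1.42.0 on the recovered reads were alternatives, with other scalings, filters, pseudocounts, removal of length and GC trends, a replicate block and libraries left out. The median SE of a log2 fold change was 0.232. Exon lengths and overlaps came from GENCODE vM1 (NCBIM37), promoters from RefSeq.

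The members and lists were chosen with earlier results of these data known. Library values are given for called members, for the member with the largest change in a functional group without a call, and for the 2 highest per kilobase in controls; Atg101, Sqstm1, Nbr1 and the Optn controls were added after their values were seen; of the other autophagy genes up to 4 calls per comparison and direction are named. Same-numbered ATRA and ATO libraries correlated at 0.119, 0.162 and 0.331 in their deviations from the group means. These values passed a limit of 0.1 set for pairing. Libraries with different numbers passed it too, such as ATRA 1 with ATO 2 (0.25) and control 1 with ATO 3 (0.308). Pairing by number was therefore not established, and a block by number was fitted only as an alternative. The printed intervals are from the fit without the block.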

Additional observations from a re-analysis of the deposited data

How the results depend on the processing

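Of the member counts, 0 for ATO against ATRA held in both directions under every alternative. For ATRA, 1 member (Atg16l2) was called higher with unadjusted p and without control 2 and ATO 3 together (chosen after seeing the data), and 1 (Wipi1) was called lower with edgeR, DESeq2, no filter, unadjusted p and without those 2 libraries. For ATO (1 higher, 3 lower), fitting only the 2 groups gave 0 higher and 2 lower (Wipi1 lost), centring on the median gene 2 lower (Wipi1 lost), removing length and GC trends 2 higher and 0 lower, unadjusted p 2 higher, and leaving out control 2 and ATO 3 together 1 higher (Atg16l2 in place of Atg4b) and 1 lower (Wipi1). Leaving out 1 library gave 0 higher and 0 to 1 lower with ATRA, and 0 to 3 higher and 0 to 4 lower with ATO. No member's call reversed. The replicate block gave 1 higher and 3 lower with ATO, 0 and 0 with ATRA, and changed no member's call; with the trends removed as well it gave 2 higher and 0 lower with ATO. Pairing of control and drug libraries by number was not established either: same-numbered deviations correlated at -0.054, 0.223 and 0.267 (ATRA) and -0.381, 0.078 and -0.025 (ATO). Over all genes, ATO calls fell from 742 higher and 1035 lower to 87 and 158 without control 3, and to 202 and 455 without ATO 3. ATRA calls fell from 162 and 516 to 22 and 141 without control 3. Depth was lowest for Atg10, at 27 to 73 reads. The cause of these changes was not tested.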
